A study of Homo sapiens with 17 samples.

Results

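Growth factor ligands are the secreted proteins with which fibroblasts signal to themselves and to their neighbours, and 10 of them were looked up by gene symbol in a table of 9699 transcripts measured by RNA-Seq and Ribo-Seq in BJ cells. The 10 symbols were HBEGF, AREG, EREG, TGFA, VEGFA, VEGFC, HGF, FGF2, PDGFA and NRG1. Of these, 6 have a row under that symbol: HBEGF (ENST00000230990), EREG (ENST00000244869), NRG1 (ENST00000338921), VEGFA (ENST00000523873), VEGFC (ENST00000280193) and HGF (ENST00000222390). The other 4, AREG, TGFA, FGF2 and PDGFA, were not analysed here. All 6 rows were above the lowest value the table can hold, 1 FPKM, in each of the 12 columns. FPKM counts fragments relative to the length of a transcript and to the depth of its library, so that levels can be compared between genes.

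BJ is a line of human foreskin fibroblasts, here immortalised with telomerase (hTERT) and grown in serum. The 17 samples cover 5 conditions. Proliferating cells were grown normally, and quiescent cells were deprived of serum. Pre-senescent and senescent cells carry a tamoxifen-inducible RASG12V, an oncogenic form of RAS, and were exposed to tamoxifen in its active form (4-OHT) during 5 days or 14 days. The cells labelled transformed carry hTERT, stable knockdowns, of p16INK4A among others, and the small T protein of SV40, and were transduced with a retrovirus for RASG12V. The proliferating and quiescent samples are described by the labels only as BJ cells. The table holds 1 RNA-Seq and 1 Ribo-Seq column per condition, except that proliferation has a column in each of the 2 sequencing runs. Run 1 holds proliferation, quiescence and pre-senescence, and run 2 holds proliferation, senescence and the cells labelled transformed. Unless another comparison is named, a ratio is against proliferation of the same run. No column has a replicate beside it, so no ratio carries an error or a test, and a ratio of at least 2-fold in either direction is counted as a change in these columns only.

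Several facts about the columns touch all results. The condition fields of a pair of Ribo-Seq samples go against their titles: the sample titled senescence is described as proliferating, and the run 2 proliferation sample as senescent. Titles were followed here. Across the 9699 transcripts, the log2 Ribo-Seq values under the senescence title had a Pearson r of 0.897 with the RNA-Seq values of senescence and of 0.780 with those of run 2 proliferation. The Ribo-Seq values under the run 2 proliferation title had an r of 0.875 with their own RNA-Seq column and of 0.796 with senescence. These points share libraries and length scaling, and r is given as a description.

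The targeted genes did not all follow the labels. TERT was at 4.29 FPKM of RNA in run 2 proliferation and 48.85 in the cells labelled transformed, and at 3.04 and 22.99 FPKM in Ribo-Seq. In both assays TERT was also at least 2-fold higher in senescence and at least 2-fold lower in quiescence. It was at least 2-fold lower in run 2 than in run 1 proliferation, again in both assays. All these cells are described as immortalised with hTERT. The HRAS row was at 2415 and 1284 FPKM in the proliferating RNA-Seq columns of runs 1 and 2, at 2102 on day 5, at 2087 on day 14 and at 311.5 in the cells labelled transformed. CDKN2A RNA, which the p16INK4A knockdown targets, was at 6.75 FPKM in run 2 proliferation and 12.64 in the cells labelled transformed. All 7 cell cycle genes with a row were lower in senescence, with a median log2 ratio of −5.13 in RNA and −5.43 in Ribo-Seq, where they summed to 487.3 FPKM under the run 2 proliferation title and 36.39 FPKM under the senescence title. In the cells labelled transformed 0 of the 7 changed. All 11 fibroblast markers have a row and none was at the floor in RNA, but 6 of the 11 were at least 2-fold higher in run 2 than in run 1 proliferation, and 8 of the 11 were lower in senescence. The 11 markers summed to 5397 FPKM in senescence and to between 6101 and 7979 FPKM in the other RNA-Seq columns. Of 7 epithelial markers 3 have a row, KRT8, KRT18 and KRT19, which summed to between 105.2 and 312.6 FPKM. Of 5 leukocyte markers CD14 and CD68 have one, CD14 at no more than 1.67 FPKM, and none of 4 endothelial markers has a row. The part of these shifts in the ligand values was not tested. Fewer cells of a type and less RNA per cell cannot be told apart in bulk samples.

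EREG (epiregulin), AREG (amphiregulin) and HBEGF are made as membrane-bound precursors, cut free by ADAM proteases, and bind the EGF receptor, while NRG1 (neuregulin) binds the related receptors ERBB3 and ERBB4. VEGFA and VEGFC drive the growth of blood and lymph vessels through receptors on endothelial cells, and HGF is released by mesenchymal cells as an inactive precursor that proteases activate and that binds the receptor MET. RAS lies downstream of these receptors, and several EGF family genes are known targets of the ERK pathway that RAS feeds.

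The promoters of the 3 ligands whose RNA was at least 2-fold higher in senescence are shown because these genes were high together. Each is the 250 bases before the RefSeq start of the gene in GRCh38.p14, written 5′ to 3′ on the strand of the gene, and capitals mark GC boxes. They lie at chr4:74364895-74365144 on the plus strand for EREG, at chr4:176792923-176793172 on the minus strand for VEGFC and at chr5:140346604-140346853 on the minus strand for HBEGF.
EREG: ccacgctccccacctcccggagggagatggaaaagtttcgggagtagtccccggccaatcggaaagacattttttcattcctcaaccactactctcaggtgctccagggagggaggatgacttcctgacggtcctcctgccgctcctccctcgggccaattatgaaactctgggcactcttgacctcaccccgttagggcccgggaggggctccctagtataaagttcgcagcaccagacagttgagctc
VEGFC: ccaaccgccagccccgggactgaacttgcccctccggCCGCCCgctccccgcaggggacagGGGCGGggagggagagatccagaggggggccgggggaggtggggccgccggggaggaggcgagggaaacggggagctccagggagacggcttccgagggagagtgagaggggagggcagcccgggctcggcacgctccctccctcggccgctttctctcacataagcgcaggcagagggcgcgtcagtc
HBEGF: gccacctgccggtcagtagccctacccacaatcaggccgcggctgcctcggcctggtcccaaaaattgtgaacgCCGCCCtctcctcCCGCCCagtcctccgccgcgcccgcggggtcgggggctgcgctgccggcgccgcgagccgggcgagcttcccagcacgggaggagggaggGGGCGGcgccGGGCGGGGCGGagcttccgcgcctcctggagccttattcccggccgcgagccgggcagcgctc
The windows differed in these letters. On both strands together, GGGCGG, the GC box, was found 5 times for HBEGF, with 1 base shared by a pair of matches, 2 times for VEGFC and 0 times for EREG. Neither TGANTCA (AP-1), CCGGAA (a form of the ETS factor site) nor ACGTG (a form of the core of hypoxia response elements) was found in the 3 windows. The other form of that core, GCGTG, was not counted, and its letters occur on the opposite strand in the windows of EREG and VEGFC. The shorter core of ETS factor sites, GGAA, was not counted, and its letters occur in all 3 windows on 1 strand or the other. Among 35116 RefSeq promoter windows of this length, 42.6% hold GGGCGG, 6.57% TGANTCA, 14.5% CCGGAA and 18.5% ACGTG. Among the 10719 of these that belong to genes in the table the shares are 64.6%, 4.26%, 23.9% and 22.7%. The same 4 strings of letters were absent from the window of HGF, the other ligand for which a window was searched. A match is a string of letters and not a measured site.

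Senescence had the most ligands past 2-fold, and also the largest shares of all transcripts past it in RNA and in Ribo-Seq. On day 14 of RASG12V, 3 of 6 ligands were at least 2-fold higher in RNA (EREG, HBEGF, VEGFC), 4 of 6 in Ribo-Seq (these and HGF) and 2 of 6 in translation efficiency (VEGFC and HGF), and none was 2-fold lower. Translation efficiency is the log2 of Ribo-Seq over RNA-Seq FPKM. Of all transcripts, 20.4% passed 2-fold in RNA, 28.0% in Ribo-Seq and 9.45% in translation efficiency, in either direction. The median log2 ratio of the 6 ligands was 0.80 in RNA, 1.73 in Ribo-Seq and 0.64 in translation efficiency, against −0.02, −0.12 and −0.04 over all transcripts.

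The earlier time point showed fewer changes. On day 5, EREG was the 1 ligand of 6 past 2-fold in RNA, and EREG and VEGFC were the 2 past it in Ribo-Seq. In the whole table, 3.87% of transcripts passed in RNA, 17.9% in Ribo-Seq and 14.7% in translation efficiency, where the ligands counted 0 of 6.

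In the cells labelled transformed, 2 of 6 ligands were higher in RNA (EREG, VEGFC), 3 of 6 in Ribo-Seq (these and HGF) and 0 of 6 in translation efficiency. The shares over all transcripts were 10.4% in RNA, 12.8% in Ribo-Seq and 3.32% in translation efficiency. The median log2 ratio of the ligands was 0.65 in RNA and 0.82 in Ribo-Seq, against 0.09 and 0.01 over all transcripts.

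Serum deprivation moved HGF past 2-fold and none of the other 5 ligands. HGF was the 1 of 6 in RNA and the 1 of 6 in Ribo-Seq, with 0 of 6 in translation efficiency, while 6.53%, 17.5% and 7.85% of all transcripts passed in these measures.

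EREG, an EGF receptor ligand, varied most among the 6 in RNA and in Ribo-Seq, 11.5-fold and 14.1-fold from its lowest to its highest column. In RNA it was at 7.56 FPKM in run 1 proliferation, 6.84 in quiescence, 23.30 in pre-senescence, 8.24 in run 2 proliferation, 28.41 in senescence and 78.39 in the cells labelled transformed. In Ribo-Seq it was at 23.04, 25.56, 135.22, 33.39, 184.10 and 325.71 FPKM in the same order. Pre-senescence, senescence and the cells labelled transformed were high in both assays and the other 3 columns low. How many of all transcripts split in this way was not counted.

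Against its own control, EREG RNA was 3.08-fold higher on day 5, 3.45-fold on day 14 and 9.51-fold in the cells labelled transformed. Its Ribo-Seq level was 5.87-fold, 5.51-fold and 9.75-fold higher. So the excess of Ribo-Seq over RNA was seen in the tamoxifen-induced cells, where translation efficiency was higher by 0.93 (log2) on day 5 and 0.68 on day 14, and was 0.04 in the cells labelled transformed. Neither of the first values reached 2-fold. On day 5 the change was larger than that of 93.4% of transcripts. EREG was well translated in every column, with a translation efficiency between 1.61 and 2.70 against column medians between 0.22 and 0.40. With the proliferation column of the other run as control, EREG still passed 2-fold in RNA in these 3 conditions, by 1.91 (log2) on day 14 and 3.37 in the cells labelled transformed.

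A row named AREGB (ENST00000380846) stands beside EREG. RefSeq lists AREGB as a synonym of AREG, and the older annotation used for the table names it apart; since near-identical copies lose reads that map to more than 1 place, its level is uncertain, and it was not counted among the 6. Its RNA was at 1.39 FPKM in run 1 proliferation, 5.08 in quiescence, 4.87 in pre-senescence, at the floor of 1 in run 2 proliferation, 9.79 in senescence and 10.75 in the cells labelled transformed. In Ribo-Seq the values were 1.37, 8.66, 10.37, 1.92, 37.23 and 38.18 FPKM. The AREGB row was low in both proliferating columns and higher in all 4 other conditions, serum deprivation included.

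AREGB RNA was 3.65-fold higher in quiescence and 3.50-fold on day 5. It was at least 9.79-fold higher in senescence and at least 10.8-fold in the cells labelled transformed, where the control was at the floor. Its Ribo-Seq ratios were 6.32, 7.57, 19.4 and 19.9-fold in these 4 conditions. EREG in quiescence, by contrast, was at a ratio of 0.90-fold in RNA and 1.11-fold in Ribo-Seq.

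HBEGF, a further EGF receptor ligand that also binds heparan sulphate, was at 9.39 FPKM of RNA in run 1 proliferation, 5.71 in quiescence, 8.79 in pre-senescence, 5.34 in run 2 proliferation, 12.39 in senescence and 7.16 in the cells labelled transformed. Its Ribo-Seq levels were 24.33, 20.87, 23.23, 10.68, 37.16 and 16.30 FPKM. Senescence was highest and run 2 proliferation lowest in both assays. HBEGF was therefore 2.32-fold higher in senescent RNA and 3.48-fold higher in senescent Ribo-Seq than in proliferation of the same run. Neither call holds against the other control: relative to run 1 proliferation the senescent log2 ratio was 0.40 in RNA and 0.61 in Ribo-Seq. On day 5 the log2 ratios of HBEGF were −0.10 and −0.07.

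NRG1, the ligand of ERBB3 and ERBB4, changed less than 2-fold in every comparison with proliferation of the same run. Its RNA was at 17.87, 16.01 and 10.52 FPKM in run 1 proliferation, quiescence and pre-senescence and at 18.04, 21.56 and 12.52 FPKM in run 2 proliferation, senescence and the cells labelled transformed. Its Ribo-Seq levels were 16.46, 15.91 and 10.40 FPKM in run 1 and 26.24, 36.08 and 16.60 FPKM in run 2. Pre-senescence was the lowest column and senescence the highest in both assays. Against proliferation of the other run, NRG1 passed 2-fold in Ribo-Seq on day 5, at −1.34 (log2), and on day 14, at 1.13. The translation efficiency of NRG1 lay near 0 in run 1, between −0.12 and −0.01, and between 0.41 and 0.74 in run 2.

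VEGFC, a ligand of the lymphatic endothelial receptor FLT4, had the highest RNA level of the 6 in every column. It was at 43.70 FPKM in run 1 proliferation, 40.88 in quiescence, 81.02 in pre-senescence, 59.77 in run 2 proliferation, 121.50 in senescence and 125.21 in the cells labelled transformed. In Ribo-Seq it was at 54.03, 50.58, 133.58, 71.91, 314.84 and 146.63 FPKM. Pre-senescence, senescence and the cells labelled transformed were above the other 3 columns in both assays, a split not counted over all transcripts. Only in Ribo-Seq did senescence stand above the cells labelled transformed.

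VEGFC RNA was 1.85-fold higher on day 5, 2.03-fold on day 14 and 2.09-fold in the cells labelled transformed, and its Ribo-Seq level was 2.47-fold, 4.38-fold and 2.04-fold higher. Translation efficiency of VEGFC was 2.15-fold higher in senescence, a change exceeded by 2.17% of transcripts, and 0.97-fold in the cells labelled transformed. The RNA changes in senescence and in the cells labelled transformed sit close to the limit of 2-fold. Measured against run 1 proliferation instead, VEGFC in senescence was higher by 1.48 (log2) in RNA and 2.54 in Ribo-Seq. The Ribo-Seq call of VEGFC on day 5 was lost against run 2 proliferation, at 0.89 (log2).

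VEGFA, the main angiogenic ligand of endothelial cells, was at 18.25 FPKM of RNA in run 1 proliferation, 30.43 in quiescence, 16.56 in pre-senescence, 14.50 in run 2 proliferation, 15.05 in senescence and 18.17 in the cells labelled transformed. In Ribo-Seq the values were 34.62, 47.84 and 26.34 FPKM in run 1, and 8.54, 13.43 and 9.48 FPKM in run 2. All 3 Ribo-Seq columns of run 1 lay above all 3 of run 2, a split not counted over all transcripts. Within a run VEGFA did not reach 2-fold in any measure, and its largest RNA ratio was 1.67-fold, in quiescence.

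HGF was the 1 ligand of the 6 that serum deprivation raised past 2-fold. Its RNA was at 2.91 FPKM in run 1 proliferation, 10.31 in quiescence, 3.70 in pre-senescence, 3.16 in run 2 proliferation, 4.70 in senescence and 5.84 in the cells labelled transformed. Its Ribo-Seq levels were 9.34, 23.67, 11.79, 12.31, 39.20 and 25.92 FPKM. Quiescence was highest in RNA, and senescence was highest in Ribo-Seq. HGF had the lowest RNA level of the 6 ligands in 5 of 6 columns, and the read counts behind these low values are not given.

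In quiescence HGF was 3.54-fold higher in RNA, above the ratio of 99.1% of transcripts, and 2.53-fold in Ribo-Seq. In senescence it was 1.49-fold higher in RNA and 3.18-fold in Ribo-Seq, with a translation efficiency 2.14-fold higher, and in the cells labelled transformed the ratios were 1.85-fold and 2.11-fold. HGF in senescence thus differed from proliferation more in Ribo-Seq than in RNA, as VEGFC did. Relative to the run 2 control, the Ribo-Seq ratio of HGF in quiescence was 0.94 (log2), just under 2-fold.

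Ordered by RNA level, VEGFC was first in every column, HGF was last except in quiescence, where HBEGF at 5.71 FPKM was lowest, and EREG was next to VEGFC in pre-senescence, senescence and the cells labelled transformed but above only HGF in run 1 proliferation. Whether neighbours in that order differ could not be judged without replicates.

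Translation efficiency separated the ligands further. EREG, HGF and HBEGF were at 1.00 or more in every column, above the median of all transcripts, and VEGFC was near that median except in pre-senescence, at 0.72, and senescence, at 1.37. In senescence all 6 ligands had a higher translation efficiency than in run 2 proliferation, by between 0.20 and 1.11 (log2). Related gene lists shifted likewise, with a median difference of 0.74 for 10 receptors, 0.60 for 15 other growth factor ligands and 0.41 for 15 proteases and co-receptors of the ligands, against 0.64 for the 6 ligands. In the cells labelled transformed the differences of the 6 lay between −0.17 and 0.19.

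The senescent cells and the cells labelled transformed are both described as carrying RASG12V, inducible in the first and from a retrovirus in the second, which also have the knockdowns and small T and the lower HRAS level given above. Both are in run 2 and can be compared directly. Here 1 of 6 ligands passed 2-fold in RNA (EREG), 3 of 6 in Ribo-Seq (HBEGF, VEGFC, NRG1) and 1 of 6 in translation efficiency (VEGFC), against 23.5%, 30.3% and 6.50% of all transcripts. EREG was 2.76-fold lower in senescent RNA and 1.77-fold lower in Ribo-Seq. HBEGF, VEGFC and NRG1 were 2.28-fold, 2.15-fold and 2.17-fold higher in senescent Ribo-Seq. For VEGFC the RNA levels lay within 1.03-fold of each other, and its translation efficiency was 2.21-fold higher in senescence.

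Because senescent Ribo-Seq rests on 1 sample whose condition field conflicts with its title, the values were also computed with the pair exchanged. The exchange puts condition and control in each other's place, so the senescent Ribo-Seq log2 ratios turned over by construction. They became −1.80 for HBEGF, −2.46 for EREG, −2.13 for VEGFC and −1.67 for HGF. The other sample of the pair, titled run 2 proliferation, is also the control of the Ribo-Seq ratios of the cells labelled transformed. With the exchange EREG there was at 0.82 (log2) and lost its call, and the 3 ligands past 2-fold were HBEGF at −1.19, VEGFC at −1.10 and NRG1 at −1.12, all lower. The RNA ratios do not involve these samples, and the cell cycle genes were low in Ribo-Seq under the senescence title.

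The 2 proliferating columns give a view of how far a ligand can differ with no change of condition. In RNA none of the 6 ligands differed by 2-fold between runs, where 7.97% of transcripts did. In Ribo-Seq 2 of 6 did, against 18.9% of transcripts: VEGFA was 4.05-fold lower and HBEGF 2.28-fold lower in run 2. In translation efficiency VEGFA was the 1 of 6, 3.22-fold lower in run 2, and 9.66% of transcripts passed. The VEGFA gap in Ribo-Seq was larger than any of its changes between conditions of a run, and 99.3% of transcripts had a higher ratio. Culture and run cannot be told apart here. Per the study, the RNA-Seq libraries were paired-end in run 1 and not in run 2. The log2 ratios of EREG, VEGFC, HGF and NRG1 between the proliferating columns lay between 0.40 and 0.67 in Ribo-Seq.

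**Figure D1:**
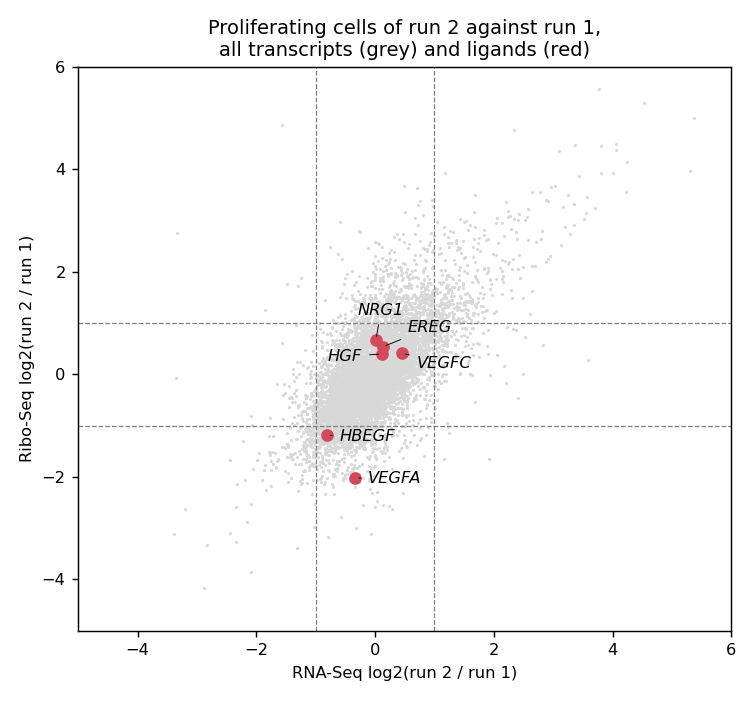
Log2 ratio of run 2 over run 1 proliferation in RNA-Seq (x axis) and Ribo-Seq (y axis), each grey point 1 transcript and each red point a ligand, dashed lines at 2-fold. VEGFA lies at −0.33 on the x axis and −2.02 on the y axis, below the main cloud, and 4 ligands lie inside the 2-fold box.

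Receptors were listed for all 10 named ligands, so those of FGF2 and PDGFA (FGFR1, FGFRL1, PDGFRA, PDGFRB) are among them. All receptors with a row were lower or within 2-fold in senescent RNA, where 3 of the 6 ligands were higher. Of 17 listed, 10 have a row. In senescence 0 were higher and 5 lower in RNA (ERBB2, FLT1, NRP2, PDGFRA, PDGFRB), with a median log2 ratio of −0.96 against −0.02 over all transcripts. In Ribo-Seq 2 were higher (MET, FGFRL1) and 2 lower (FLT1, PDGFRB), with a median of −0.12, equal to that of all transcripts. Of all transcripts 20.4% passed 2-fold in senescent RNA and 28.0% in Ribo-Seq.

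EGFR, the receptor of EREG and HBEGF, did not pass 2-fold in RNA or Ribo-Seq in any of the 4 conditions. It was at 38.71 FPKM of RNA in run 2 proliferation, 21.74 in senescence and 37.11 in the cells labelled transformed, and at 77.04, 86.27 and 77.47 FPKM in Ribo-Seq. ERBB3 and ERBB4, the receptors of NRG1, were not analysed here. Their partner ERBB2 was at 19.88 FPKM of RNA in run 2 proliferation and 9.37 in senescence.

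MET, the receptor of HGF, was lower where HGF was highest in RNA. It fell from 34.00 to 16.24 FPKM of RNA in quiescence and from 30.20 to 12.80 in Ribo-Seq. MET RNA was at 36.69 FPKM in run 2 proliferation and 35.05 in senescence, while its Ribo-Seq level rose from 31.44 to 81.42. In the cells labelled transformed MET RNA fell to 12.62 FPKM.

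FLT1, a receptor of VEGFA, fell from 14.29 to 5.46 FPKM of RNA on day 5 and from 23.93 to 1.67 on day 14, and was at 20.75 in the cells labelled transformed. NRP2, a co-receptor of VEGFC, went from 3.56 FPKM to the floor in senescent RNA, so its fall is at least 3.56-fold. PDGFRB, a receptor of the PDGF ligands, fell from 48.45 to 4.49 FPKM in senescent RNA. PDGFRA rose from 22.25 to 58.08 FPKM in quiescence and from 27.85 to 71.65 in the cells labelled transformed, and fell to 10.08 in senescence. PDGFRB and several collagens are also fibroblast markers, of which 8 of 11 were lower in senescence.

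**Figure D2:**
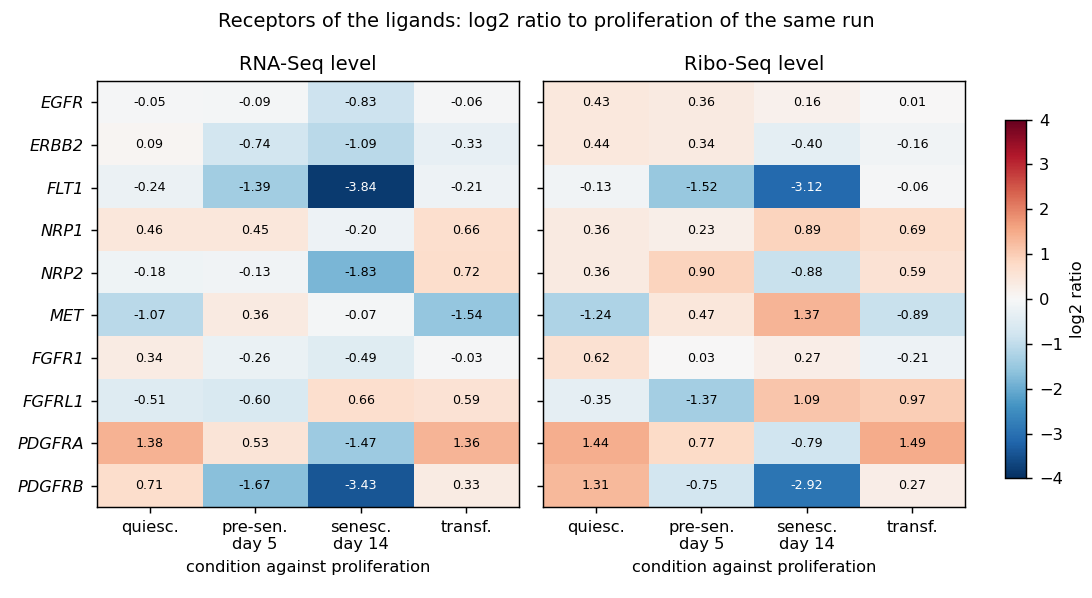
Log2 ratio to proliferation of the same run for the 10 receptors with a row (y axis) in 4 conditions (x axis), RNA-Seq left and Ribo-Seq right, as colour and printed value, 1 column per condition. In senescence FLT1 is at −3.84 in RNA and −3.12 in Ribo-Seq, and MET at −0.07 in RNA and 1.37 in Ribo-Seq.

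The proteases and co-receptors that release or present the ligands were listed as 22 genes, of which 15 have a row. In senescence 3 of 15 were higher in RNA (PLAU, CD44, CD9) and 5 of 15 in Ribo-Seq (these, ADAM9 and ADAM17), and 0 were lower. Of all transcripts 20.4% and 28.0% passed in either direction, and the shares that were higher are smaller. In senescent RNA 6.82% of transcripts exceeded the 2.03-fold of VEGFC. In senescent Ribo-Seq 18.9% exceeded the 1.57-fold of VEGFA, which is under the limit. ADAM17, the main sheddase of EGF family precursors, went from 12.70 to 29.47 FPKM in senescent Ribo-Seq. CD9, a tetraspanin that associates with the HBEGF precursor, rose from 101.99 to 271.84 FPKM in RNA. PLAU, urokinase, a protease that can activate HGF, rose from 70.29 FPKM of RNA to 258.95 in senescence and to 1564.37 in the cells labelled transformed, where RHBDF2, a partner of ADAM17, was also higher and SDC4, a heparan sulphate carrier, lower. On day 5 PLAU was the 1 gene of 15 that passed in RNA, and in quiescence these were RHBDF2 and CD9. Both RHBDF2 and CD9 were also at least 2-fold higher in run 2 than in run 1 proliferation RNA. RHBDF2 was at 5.48 FPKM of RNA in quiescence and 6.09 in run 2 proliferation.

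Among 35 other growth factor ligands 16 have a row, 15 of them with a ratio in senescence, and they moved in both directions. In senescent RNA 3 were higher (EPGN, BDNF, ANGPTL4) and 3 lower (FGF1, MDK, PTN), and in Ribo-Seq 6 were higher and 3 lower. The shares of all transcripts past 2-fold, in either direction, were 20.4% and 28.0%. Their median log2 ratio in senescent Ribo-Seq was 0.89. EPGN (epigen), an EGF receptor ligand, was above the floor in senescence alone, at 3.31 FPKM in RNA and 12.53 in Ribo-Seq. In the order of protein-coding genes in RefSeq, EPGN, EREG, AREG and BTC follow one another, and all 4 encode EGF family ligands. BTC was not analysed here.

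ANGPTL4, a secreted inhibitor of lipoprotein lipase, was higher in RNA in all 4 conditions, with 1.69 FPKM in run 1 proliferation, 3.40 in quiescence, 6.86 in pre-senescence, 2.50 in run 2 proliferation, 17.17 in senescence and 6.80 in the cells labelled transformed. BDNF, a neurotrophin, was higher in senescence, at 32.27 against 14.21 FPKM of RNA, and lower in quiescence, at 8.41 against 25.38 FPKM. KITLG, the ligand of KIT, and FGF5 were lower in the cells labelled transformed, at 5.71 against 35.91 and 13.45 against 62.02 FPKM of RNA. GAS6, the ligand of the TAM receptors, was at 57.96 FPKM of RNA on day 5 against 186.51. The heparin-binding factors PTN and MDK were at 42.30 and 9.16 FPKM of RNA in run 2 proliferation and at the floor in senescence, at least 42.3-fold and 9.16-fold lower. In the cells labelled transformed 1 of 14 was higher in RNA (ANGPTL4) and 6 were lower, unlike EREG and VEGFC among the ligands above. Of all transcripts 10.4% passed there, in either direction. Between the proliferating columns, RNA of FGF5 and MDK was at least 2-fold higher in run 2 and that of ANGPT1 at least 2-fold lower.

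Genes known to respond to ERK were read beside the ligands. Of 14 with a row, 0 were higher in RNA in quiescence, 4 on day 5, 4 on day 14 and 8 in the cells labelled transformed, and 0 were lower in any of these. The shares of all transcripts past 2-fold in RNA, in either direction, were 6.53%, 3.87%, 20.4% and 10.4% in these conditions. On day 14 the VEGFC ratio of 2.03-fold was exceeded by 6.82% of transcripts. The share that was higher is therefore well below 20.4%. The ERK phosphatase DUSP6 and the inhibitor SPRY2 were among the 4 on day 5, and DUSP4 and DUSP5 among those on day 14. ETV4, SPRY4 and SPRED1 were among the 8 in the cells labelled transformed, and PHLDA1 was in all 3 of these lists. In Ribo-Seq 6 of the 14 were higher in quiescence, where EREG and HBEGF were not, and in senescence 3 were higher and 3 lower (ETV4, EGR1, FOSL1). Of all transcripts 17.5% and 28.0% passed 2-fold in Ribo-Seq in these 2 conditions, in either direction. Between the proliferating columns, DUSP4 and PHLDA1 RNA was at least 2-fold lower in run 2, the run of their day 14 control.

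Of 7 HIF target genes with a row, read because hypoxia raises VEGFA, NDRG1 alone passed in quiescent RNA, from 15.59 to 63.89 FPKM. None passed in senescent RNA, and NDRG1 and P4HA1 were lower in the cells labelled transformed.

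The transcripts most like each ligand were sought by Pearson's r over 8 log2 ratios, 4 conditions in 2 assays, among 8414 transcripts above the floor in every column. The ratios share control columns in groups, so r describes a shape and not its size. VEGFA and HGF were each other's closest match, with an r of 0.954, and both were highest in RNA in quiescence. For EREG the closest were CPT1A (0.983), PODXL (0.979) and PRPF3 (0.977). For VEGFC they were ADAM19 (0.976), OTUD3 (0.975) and UBAP2 (0.974). HBEGF was matched by PISD (0.975), STC2 (0.972) and PCDH9 (0.972), and NRG1 by FLOT2 (0.987), AACS (0.986) and MAMDC2 (0.985). After each other, VEGFA and HGF were both next most like UNC93B1, with r of 0.948 and 0.937, followed by FSTL1 (0.941) for VEGFA and PRSS23 (0.936) for HGF.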

How the data were processed

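RNA-Seq and Ribo-Seq were run on BJ cells in 5 conditions. The authors deposited 1 table of FPKM values, 12 columns for 9699 transcripts, made per the labels with Bowtie on hg19 and per the methods with uniquely mapped reads, Ensembl release 65 and 1 isoform per gene. RNA-Seq FPKM covers the whole transcript and Ribo-Seq FPKM the coding sequence. Values below 1 were set to 1. Transcripts with too few reads in every condition had been left out. The proliferating and quiescent columns of run 1 and the pre-senescent RNA-Seq column each join 2 samples, and how they were joined is not given in the sources used here. The table holds no counts, so the reads behind a value are not known and no interval is given. The study lists reads per library, with fewer outside rRNA for each Ribo-Seq library here than for any RNA-Seq library.

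From the table, log2 ratios within a run and translation efficiency (log2 Ribo-Seq minus log2 RNA-Seq) were computed with Python 3.11.15, pandas 2.3.3 and numpy 2.4.6, and figures with matplotlib 3.10.9. The calculation was tested on simulated data. With 1 column per condition and assay no test was possible, and 2-fold was the limit. Ratios with 1 side at the floor are bounds. Alternatives were 1.5-fold, a cut-off in local SDs, log2(FPKM + 1), centring, transcripts above the floor only, the control of the other run, and exchange of the 2 conflicting Ribo-Seq samples. Of other gene lists, at most 8 genes past 2-fold in RNA were named, by largest ratio, plus targeted genes (1 of which is not reported here) and, chosen after their values were seen, EGFR, ADAM9, ADAM17, FGFRL1 and the markers. Members and lists were chosen with earlier results of these data known.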

Additional observations from a re-analysis of the deposited data

Results flagged for a closer look

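In 3 ligands, both assays lay on one side of proliferation in one condition and on the other side in a second. Each condition has 1 column per assay, and the differences were not tested. HBEGF had log2 ratios of −0.10 in RNA-Seq and −0.067 in Ribo-Seq on day 5 of RASG12V, and of 1.21 and 1.80 on day 14. VEGFA had −0.14 and −0.39 on day 5, and 0.054 and 0.65 on day 14. NRG1 had −0.76 and −0.66 on day 5, 0.26 and 0.46 on day 14, and −0.53 and −0.66 in the cells labelled transformed. Day 5 and day 14 were sequenced in different runs and have different proliferating controls, which for HBEGF differed by −0.81 and for VEGFA by −2.02, HBEGF in RNA-Seq and VEGFA in Ribo-Seq.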

How the results depend on the processing

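The counts of ligands past the limit were the same under log2(FPKM + 1) and among transcripts above the floor, in 15 of 15 cases each. Counts that moved by over 1.5 times are given here, and the others differed by at most 1 ligand, with the names free to change. At 1.5-fold the count was 3 for RNA-Seq in quiescence and 3 on day 5, 1 for translation efficiency on day 5, 4 for it on day 14, 5 for Ribo-Seq in the cells labelled transformed, and 3, 5 and 4 for RNA-Seq, Ribo-Seq and translation efficiency of senescence against these cells. At a cut-off in local SDs, the SD of the ratios of transcripts of like level, with the multiple taken from the study's methods, it was 2 for RNA-Seq on day 5, 1 for RNA-Seq and 2 for Ribo-Seq on day 14, 1 for RNA-Seq in the cells labelled transformed and 0 for Ribo-Seq of senescence against them. Centring on the median of all transcripts, which lay at −0.12 in Ribo-Seq and −0.14 in translation efficiency on day 5, gave 1 for translation efficiency on day 5 and 1 for RNA-Seq in the cells labelled transformed. The control of the other run gave 2 for RNA-Seq and 1 for translation efficiency in quiescence, 4 for Ribo-Seq and 1 for translation efficiency on day 5, and for translation efficiency 4 on day 14 and 1 in the cells labelled transformed. Exchanging the 2 Ribo-Seq samples whose fields conflict gave 4, 4 and 2 for translation efficiency in senescence, the cells labelled transformed and senescence against them. It also reversed log2 ratios: in senescent Ribo-Seq to −1.80 (HBEGF), −2.46 (EREG), −2.13 (VEGFC) and −1.67 (HGF), in senescent translation efficiency to −3.15 (VEGFC) and −2.24 (HGF), in Ribo-Seq of the cells labelled transformed to −1.10 (VEGFC) and −0.60 (HGF), and for senescence against these cells to −0.61 (HBEGF) and −1.03 (VEGFC) in Ribo-Seq and −0.98 (VEGFC) in translation efficiency. The exchange puts condition and control in each other's place, which turns a sign by construction; otherwise the cause was not tested. Of the ratios of the ligands, 90 of 90 moved by less than the spread between the proliferating columns under log2(FPKM + 1) and under centring, and 52 of 72 with the control of the other run. No paired analysis was possible because the table joins the numbered replicates into 1 column. Read counts per transcript are not given, so the precision of the lowest levels, of HGF and AREGB, was not estimated.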
